A study of Mus musculus with 10 samples.

Results

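The 10 genes described here, Pcdhb13 to Pcdhb22, form the distal (3′) end of the beta array of clustered protocadherins on mouse chromosome 18. They were taken by name and position from the 22 Pcdhb genes among the 54532 genes of the count files. No measured value entered this rule, but earlier results of these data were known when the genes were chosen. Poly(A) RNA was sequenced from neuronal nuclei that had been sorted with an antibody against NeuN (the product of Rbfox3) from adult brains of C57BL/6J mice, in 10 libraries. The conditions were 5 control libraries without Nestin-Cre, 3 Mphosph8Δ/Δn libraries (Mphosph8fl/fl Nestin-Cre+) and 2 Morc2aΔ/Δn libraries (Morc2afl/fl Nestin-Cre+). Control replicates 1 to 3 were Mphosph8fl/fl Nestin-Cre- and control replicates 4 and 5 were Morc2afl/fl Nestin-Cre-, so that each knockout has controls of its own floxed line. Every animal thus carried floxed alleles of one gene or the other, in which exon 4 is removed by Cre. Nestin-Cre acts in neural progenitors, so that deletion reaches neurons and the glia born from the same progenitors. None of the 10 libraries came from an animal with Nestin-Cre and no deletion, so an effect of Cre itself cannot be told apart from that of the deletion.

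Clustered protocadherins are homophilic cell adhesion proteins of neurons. Each beta gene has its own promoter and encodes a whole protein in one large exon, and a neuron expresses only some of these genes, chosen promoter by promoter with the help of CTCF and cohesin, which bring a promoter to a distant enhancer. The combination of isoforms on its surface lets a neuron distinguish its own branches from those of other neurons. MPP8, encoded by Mphosph8, is the subunit of the HUSH complex that binds trimethylated lysine 9 of histone H3, and MORC2A is an ATPase that works with HUSH in chromatin silencing. The comparison of each knockout with the controls asks how the RNA of these genes depends on either protein in neurons.

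The files held between 6686038 (control replicate 5) and 10764555 (control replicate 3) counted reads per library. Levels are given as CPM, a gene's counts relative to the library's total as scaled by TMM. All 10 distal Pcdhb genes had reads in every library. A limit of 3 counts corresponds to 0.279 to 0.449 CPM, below the lowest value of any of these genes, 0.889 CPM for Pcdhb13 in control replicate 4. Pcdhb13 was nevertheless measured on few reads, 9 to 66 per library, whereas Pcdhb17 had 273 to 1341.

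Rbfox3, the gene of the sorting antigen, was read at 232 ± 49.4 CPM in control (SD, n = 5), 272 ± 52.7 in Mphosph8Δ/Δn (n = 3) and 265 ± 20.1 in Morc2aΔ/Δn (n = 2). The sorted nuclei also held RNA of glial genes, with Mbp of oligodendrocytes at a mean of 486 CPM and Slc1a2 of astrocytes at 412 CPM over the 10 libraries. Mphosph8 was read at 32.2, 33.4, 37.1, 48.9 and 41.5 CPM in the controls, at 37.1, 35.9 and 18.8 CPM in the libraries labelled Mphosph8Δ/Δn, and at 41.4 and 37.9 CPM in those labelled Morc2aΔ/Δn. Only the third Mphosph8Δ/Δn library lay below the controls. Morc2a was at 140 ± 14.7 CPM in control, 179 ± 23.6 in Mphosph8Δ/Δn and 219 ± 5.45 in Morc2aΔ/Δn, and neither gene passed the test in either knockout. By the study's design, transcripts without exon 4 are out of frame and subject to nonsense-mediated decay, which would lower the gene's count. Such a fall was seen in 1 of the 3 Mphosph8Δ/Δn libraries and in neither Morc2aΔ/Δn library, where Morc2a was higher than in every control. The counts cover whole genes while the deletion removes 1 exon, so the genotypes were not checked here and the groups are those of the labels. The study reports that the loss of each gene was verified in whole brains by qRT-PCR and immunoblot. It also measured both genes by qRT-PCR in sorted NeuN+ nuclei of each knockout. These assays were not analysed here.

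All 10 genes are protein-coding and are read from the plus strand, and they occupy positions 37442500 to 37524479 of chromosome 18 (GRCm38, GENCODE M21). Pcdhb13 to Pcdhb21 have 1 exon each, and Pcdhb22 has a transcript with 2. In order, Pcdhb13 (ENSMUSG00000047307) spans 37442500 to 37446209, Pcdhb14 (ENSMUSG00000044043) 37447656 to 37456350, Pcdhb15 (ENSMUSG00000047033) 37473540 to 37476340, and Pcdhb16 (ENSMUSG00000047910) 37477814 to 37483038. Pcdhb17 (ENSMUSG00000046387) spans 37484795 to 37489454 and is followed after 10 bases by Pcdhb18 (ENSMUSG00000048347), which ends at 37494505. Pcdhb19 (ENSMUSG00000043313) spans 37496991 to 37504128 and is followed after 135 bases by Pcdhb20 (ENSMUSG00000046191), which ends at 37507822. Pcdhb21 (ENSMUSG00000044022) spans 37513621 to 37518325 and Pcdhb22 (ENSMUSG00000073591) 37517871 to 37524479, with 455 bases in common on the same strand.

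This arrangement bears on what a count can mean. Coding sequences of the 10 genes were between 2322 and 2406 bases long, and over the 45 pairs their identity ranged from 70.3% (Pcdhb15 and Pcdhb19) to 75.6% (Pcdhb19 and Pcdhb20), with a median of 73.3%. Despite this similarity, the share of 50-base words (the read length) of a gene's transcripts that also occur in another gene was low, between 1.8% (Pcdhb13) and 5.47% (Pcdhb20) for Pcdhb13 to Pcdhb20. It was 11.3% for Pcdhb21 and 8.58% for Pcdhb22, most of it from the 455 bases they share, and reads from there cannot be assigned to one of the pair. How such reads were counted is not given in the sources used here.

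In control nuclei the distal Pcdhb genes differed in level by more than 10-fold per length of transcript. Pcdhb17 was highest, at 8.95 ± 1.46 CPM per kilobase of exon (SD, n = 5), followed by Pcdhb20 at 6.07 ± 1.02 and Pcdhb21 at 4.73 ± 0.618. These 3 genes stood above the other 7, since the lowest control library of Pcdhb21 (4.12 CPM per kilobase) was above the highest of Pcdhb15 (3.63), the next in order. Pcdhb15 was at 2.9 ± 0.67 and Pcdhb22 at 2.19 ± 0.586 CPM per kilobase. Pcdhb16, Pcdhb19, Pcdhb18 and Pcdhb14 came next, with means from 1.57 down to 1.28, and Pcdhb13 was last at 0.545 ± 0.239. From Pcdhb15 downwards, each gene's control libraries overlapped in range with those of the next, as did those of Pcdhb17 with Pcdhb20 and of Pcdhb20 with Pcdhb21.

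In Mphosph8Δ/Δn nuclei, 8 of the 10 distal genes were higher than in every control library, and only Pcdhb13 and Pcdhb19 overlapped with the controls. Among all 18573 genes tested, 2.31% were higher in Mphosph8Δ/Δn with no overlap between the groups. Pcdhb14, Pcdhb15, Pcdhb17, Pcdhb18 and Pcdhb20 passed the test (edgeR quasi-likelihood test, Benjamini-Hochberg adjusted p below 0.05 and fold change above 2), which is 5 of 10 against 0.0969% of all genes tested. All 10 log2 fold changes were above 0, which held for 48.7% of all genes, and their median was 1.11, with a median over all genes of -0.009. At an unadjusted p below 0.05 (edgeR) 8 of 10 were higher, against 2.58% of all genes. In these bulk libraries, more cells that express a gene and more RNA per cell cannot be told apart.

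**Figure D1:**
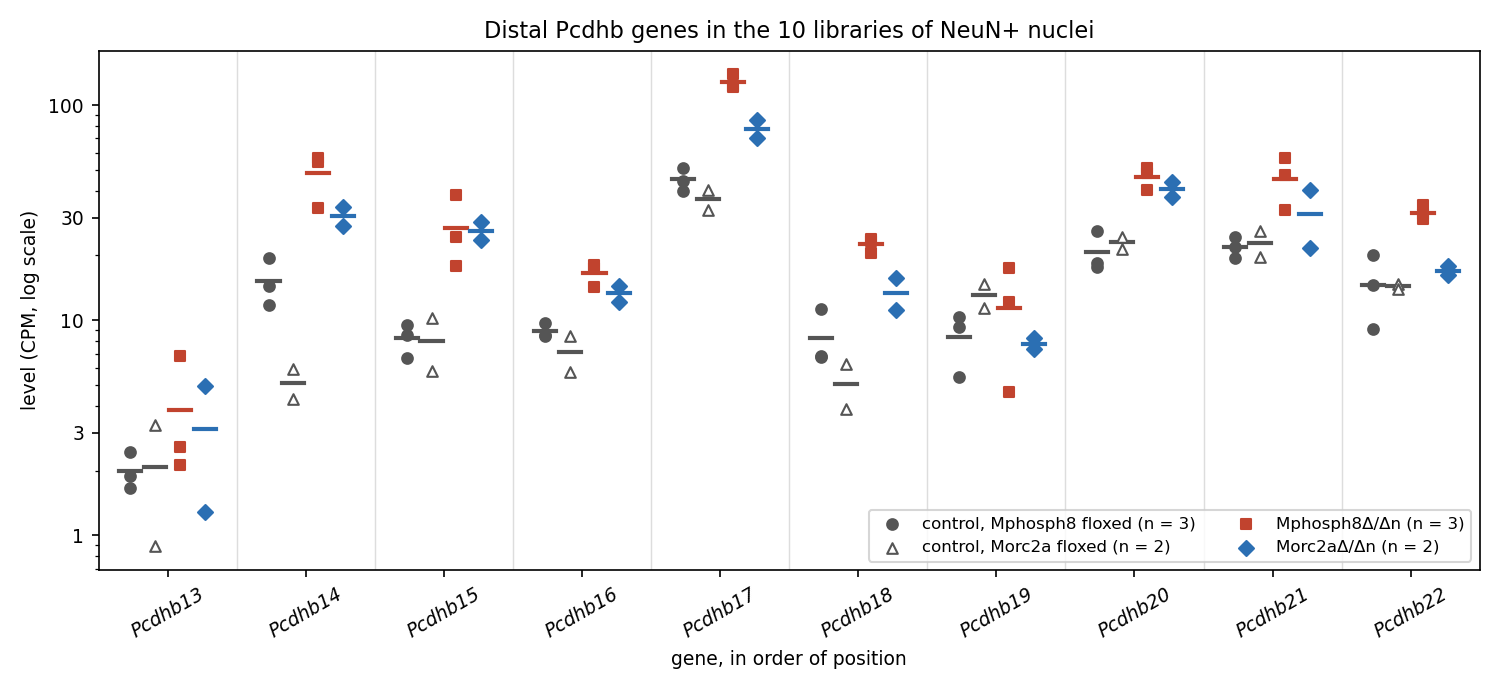
Level of each distal Pcdhb gene (CPM, log scale) in each of the 10 libraries, in order of position. Points are libraries and short lines group means, with the controls split by floxed line. The Mphosph8Δ/Δn libraries lie above all 5 controls for 8 genes and the Morc2aΔ/Δn libraries for 5, while for Pcdhb13 and Pcdhb19 each knockout overlaps with the range of the 5 controls.

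Pcdhb17 had the most reads of the 10 genes in every library. Its level was 39.7, 44.6, 51.1, 32.6 and 40.5 CPM in control replicates 1 to 5, 139, 123 and 121 CPM in Mphosph8Δ/Δn, and 85.4 and 70 CPM in Morc2aΔ/Δn. The 3 groups did not overlap, with Morc2aΔ/Δn between control and Mphosph8Δ/Δn. Pcdhb17 rose 3.06-fold in Mphosph8Δ/Δn (log2 fold change 1.61 ± 0.154 SE, edgeR adjusted p = 0.000122). In Morc2aΔ/Δn its log2 fold change was 0.90 ± 0.175 (1.86-fold), which missed the threshold (edgeR adjusted p = 0.0528). The adjusted p there was 0.000586 with DESeq2 and 0.000713 with edgeR without a filter, where the log2 fold change of 0.90 was still under the minimum for a call. Pcdhb17 was the one distal gene whose Mphosph8Δ/Δn call held under all 16 alternatives tried, with adjusted p at most 0.00436. Among them, dropping the minimum fold could not lose a call.

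Pcdhb14 had the largest fold change of the 10 in Mphosph8Δ/Δn against the 5 controls, though not against the controls of its own line, where Pcdhb15 was at a log2 of 1.70 and Pcdhb14 at 1.66. It was at 11.8, 14.4, 19.4, 5.93 and 4.3 CPM in control replicates 1 to 5, 54.4, 56.8 and 33.2 CPM in Mphosph8Δ/Δn, and 27.3 and 33.7 CPM in Morc2aΔ/Δn. Both knockouts lay above every control, and the 2 controls of the Morc2a line lay below the 3 of the Mphosph8 line. The log2 fold change was 2.09 ± 0.352 in Mphosph8Δ/Δn (4.27-fold, edgeR adjusted p = 0.0231) and 1.44 ± 0.393 in Morc2aΔ/Δn (2.71-fold, edgeR adjusted p = 0.181). The call in Mphosph8Δ/Δn was lost without control replicate 1, Mphosph8Δ/Δn replicate 1 or Mphosph8Δ/Δn replicate 2 and with a replicate block (log2 1.65), 4 of 16 alternatives, where the edgeR adjusted p was at most 0.167.

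Pcdhb15, the gene next to it, passed the test in both knockouts. No other distal gene did so against the 5 controls with edgeR and the filter on low counts. With DESeq2 and without a filter, Pcdhb14 and Pcdhb15 each passed in both knockouts. The DESeq2 adjusted p was 1.83e-05 and 0.0275 for Pcdhb14, and 4.31e-05 and 0.000586 for Pcdhb15. Against controls of the same line, Pcdhb14 passed in both knockouts and Pcdhb15 in neither. The level of Pcdhb15 was 8.51, 9.55, 6.64, 10.2 and 5.78 CPM in the controls, 38.1, 17.8 and 24.5 CPM in Mphosph8Δ/Δn, and 28.5 and 23.7 CPM in Morc2aΔ/Δn. The ranges of the knockouts overlapped each other and not the controls. Pcdhb15 rose 3.28-fold in Mphosph8Δ/Δn (log2 1.71 ± 0.276, edgeR adjusted p = 0.0209) and 3.2-fold in Morc2aΔ/Δn (log2 1.68 ± 0.306, edgeR adjusted p = 0.0438). The 2 comparisons share their 5 control libraries. The Mphosph8Δ/Δn call was lost under 6 of 16 alternatives, with log2 fold changes between 1.37 and 1.95 when 1 library was left out. The Morc2aΔ/Δn call was lost in 8 of the 10 fits that left out 1 library (all but those without control replicate 4 or 5), with edgeR adjusted p between 0.0382 and 0.177 and log2 fold changes between 1.54 and 1.80.

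Pcdhb18 and Pcdhb20 also rose in Mphosph8Δ/Δn. Pcdhb18 was at 6.76, 11.3, 6.82, 3.85 and 6.23 CPM in the controls, 23.8, 23.3 and 20.6 CPM in Mphosph8Δ/Δn, and 15.7 and 11.2 CPM in Morc2aΔ/Δn. The lower Morc2aΔ/Δn library lay just under the highest control. Its log2 fold change was 1.68 ± 0.305 in Mphosph8Δ/Δn (3.21-fold, edgeR adjusted p = 0.0349) and 0.94 ± 0.347 in Morc2aΔ/Δn (edgeR adjusted p = 0.328). Pcdhb20 was at 17.6, 25.9, 18.5, 24.5 and 21.5 CPM in the controls, 50.8, 48.1 and 40.2 CPM in Mphosph8Δ/Δn, and 37.6 and 44.1 CPM in Morc2aΔ/Δn. Both knockouts lay above the controls and overlapped each other. Its log2 fold change was 1.10 ± 0.191 in Mphosph8Δ/Δn (2.14-fold, edgeR adjusted p = 0.027) and 0.92 ± 0.215 in Morc2aΔ/Δn (1.89-fold, edgeR adjusted p = 0.123). Against controls of the same line both Mphosph8Δ/Δn calls were lost (edgeR adjusted p = 0.206 for Pcdhb18 and 0.0801 for Pcdhb20), at log2 fold changes of 1.44 and 1.16. Both were also lost with a replicate block (edgeR adjusted p = 0.261 and 0.103) and when any Mphosph8Δ/Δn library was left out.

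Pcdhb16, Pcdhb21 and Pcdhb22 lay above all controls in Mphosph8Δ/Δn without passing the test. Pcdhb16 ranged from 5.73 to 9.76 CPM in control, from 14.2 to 18 CPM in Mphosph8Δ/Δn and was at 14.5 and 12.2 CPM in Morc2aΔ/Δn, with log2 fold changes of 1.01 ± 0.268 and 0.70 ± 0.304. Pcdhb21 ranged from 19.4 to 26 CPM in control and from 32.4 to 56.6 CPM in Mphosph8Δ/Δn (log2 1.03 ± 0.232). Its Morc2aΔ/Δn libraries were far apart, at 40.4 and 21.7 CPM, the second inside the control range (log2 0.48 ± 0.267). Pcdhb22 ranged from 9.07 to 20 CPM in control and from 29.6 to 34.2 CPM in Mphosph8Δ/Δn (log2 1.13 ± 0.24), whereas in Morc2aΔ/Δn both libraries, at 17.8 and 16.2 CPM, lay inside the control range (log2 0.23 ± 0.28). The edgeR adjusted p in Mphosph8Δ/Δn was 0.395 for Pcdhb16, 0.167 for Pcdhb21 and 0.113 for Pcdhb22, and in Morc2aΔ/Δn it was 0.415, 0.551 and 0.836. With DESeq2, Pcdhb21 and Pcdhb22 passed the same threshold (adjusted p = 0.0177 and 0.00985).

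Pcdhb13 and Pcdhb19 overlapped with control in both knockouts. Pcdhb19 was at 9.26, 5.46, 10.4, 14.8 and 11.4 CPM in the controls, 4.65, 17.4 and 12.1 CPM in Mphosph8Δ/Δn, and 7.34 and 8.25 CPM in Morc2aΔ/Δn. Its Mphosph8Δ/Δn libraries included the lowest and the highest value of all 10. The log2 fold change was 0.15 ± 0.389 in Mphosph8Δ/Δn and -0.40 ± 0.46 in Morc2aΔ/Δn, the only value below 0 among the distal genes (edgeR adjusted p = 0.998 and 0.826). Pcdhb19 lies between Pcdhb18 and Pcdhb20, which both rose in Mphosph8Δ/Δn. Pcdhb13 ranged from 0.889 to 3.26 CPM in control, from 2.12 to 6.82 CPM in Mphosph8Δ/Δn and was at 1.28 and 4.95 CPM in Morc2aΔ/Δn, with log2 fold changes of 0.93 ± 0.651 and 0.63 ± 0.741 (edgeR adjusted p = 0.967 and 0.828). Without Mphosph8Δ/Δn replicate 3 the first value fell to 0.23, and without Morc2aΔ/Δn replicate 2 the second was -0.66. Pcdhb13 had at most 66 reads in a library, and its libraries varied by a CV of 67.4% in Mphosph8Δ/Δn and 83.5% in Morc2aΔ/Δn.

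The number of calls in Mphosph8Δ/Δn fell when any of 7 of the 8 libraries compared was left out. It was 1 (Pcdhb17) without control replicate 1 or without Mphosph8Δ/Δn replicate 1, 2 without control replicate 3 or without Mphosph8Δ/Δn replicate 2 or 3, 3 without control replicate 5, and 4 (all but Pcdhb18) without control replicate 4, against 5 with all libraries. Over these fits the log2 fold changes ran from 1.90 to 2.39 for Pcdhb14, from 1.37 to 1.95 for Pcdhb15, from 1.53 to 1.94 for Pcdhb18 and from 1.03 to 1.20 for Pcdhb20, all above the minimum fold.

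In Morc2aΔ/Δn nuclei, 5 of the 10 genes (Pcdhb14, Pcdhb15, Pcdhb16, Pcdhb17 and Pcdhb20) were higher than in every control library, against 7.59% of all genes tested. Pcdhb15 alone passed the test, 1 of 10 genes against 0.0592% of all genes in either direction. At an unadjusted p below 0.05 (edgeR) 6 of 10 were higher, against 4.32% of all genes. The median of the 10 log2 fold changes was 0.80, beside -0.014 over all genes. The 5 genes that lay above all controls in Morc2aΔ/Δn did so in Mphosph8Δ/Δn as well, measured against the same 5 controls. Pcdhb18, Pcdhb21 and Pcdhb22 lay above them in Mphosph8Δ/Δn and overlapped with them in Morc2aΔ/Δn.

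**Figure D2:**
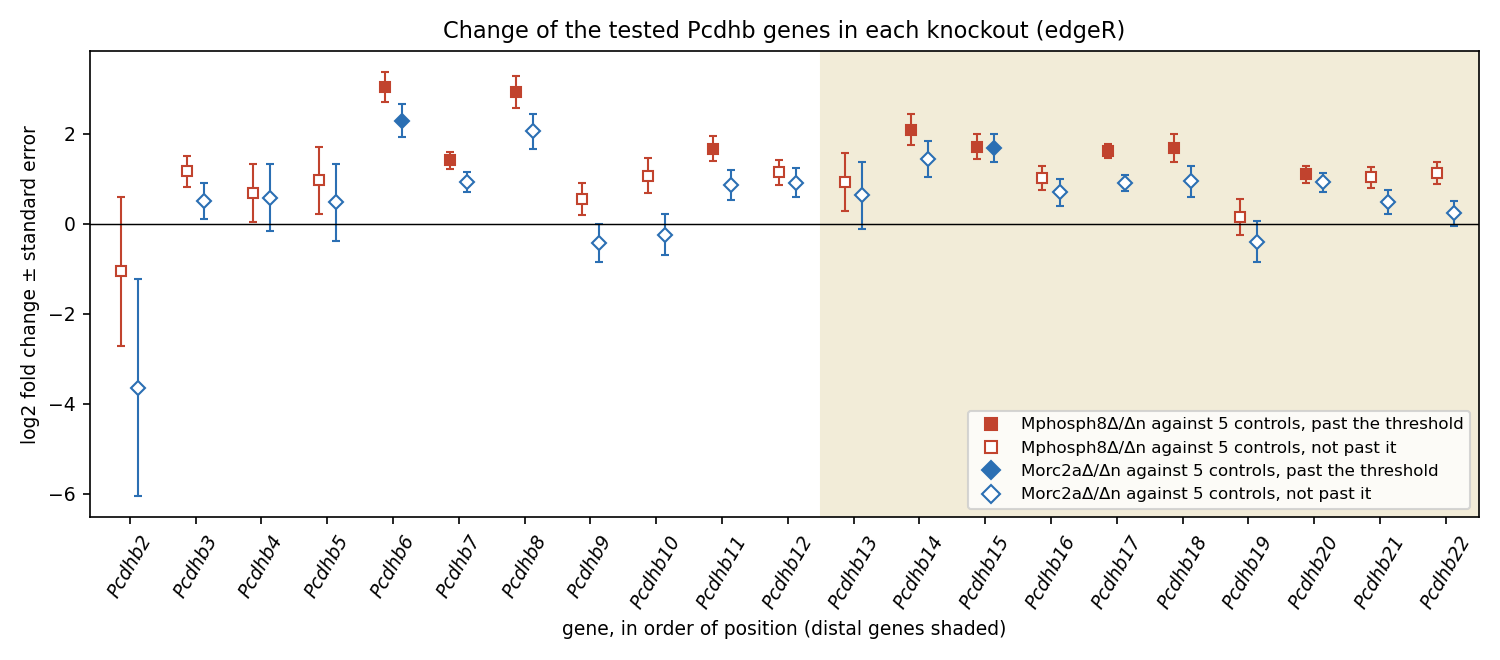
Log2 fold change with its standard error for the 21 tested Pcdhb genes in order of position (x axis; Pcdhb1 was not tested), in each knockout against the 5 controls (edgeR). Filled symbols passed the test and shading marks the distal genes. In Mphosph8Δ/Δn the distal genes span 0.15 (Pcdhb19) to 2.09 (Pcdhb14), and in Morc2aΔ/Δn -0.40 to 1.68.

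Whether the knockouts differed in effect was tested by setting each against control libraries of its floxed line, so that the effects share no library. None of the 10 genes differed between the knockouts, and none of all 18573 genes tested (edgeR, adjusted p below 0.05, a share of 0%). At an unadjusted p below 0.05 the number was also 0 of 10, against 7.95% of all genes, and with DESeq2 it was 0 of 10 at an adjusted p below 0.05, and 64 of all genes. The largest differences of log2 fold changes, Mphosph8Δ/Δn minus Morc2aΔ/Δn, were 1.20 ± 0.67 for Pcdhb19, -0.90 ± 0.442 for Pcdhb14 and 0.88 ± 0.444 for Pcdhb22. The larger Mphosph8Δ/Δn fold changes of Pcdhb17, Pcdhb18, Pcdhb21 and Pcdhb22 against the common controls are thus not shown to differ from those of Morc2aΔ/Δn.

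Against the controls of the same line, Pcdhb14 and Pcdhb17 rose in Mphosph8Δ/Δn, with log2 fold changes of 1.66 ± 0.274 and 1.50 ± 0.167 (adjusted p = 0.036 and 0.000794 by edgeR, 2 of 10 genes called against 0.0538% of all genes). In Morc2aΔ/Δn Pcdhb14 rose 5.9-fold (log2 2.56 ± 0.362, edgeR adjusted p = 0.0104, 1 of 10 against 0.0538% of all genes). Pcdhb15 had log2 fold changes of 1.70 ± 0.329 and 1.69 ± 0.405 in the 2 lines and did not pass against the fewer controls (edgeR adjusted p = 0.0819 and 0.201). With no overlap, 8 genes were higher than the same-line controls in Mphosph8Δ/Δn (6.13% of all genes) and 7 in Morc2aΔ/Δn (18.1% of all genes, with 2 libraries on each side).

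**Figure D3:**
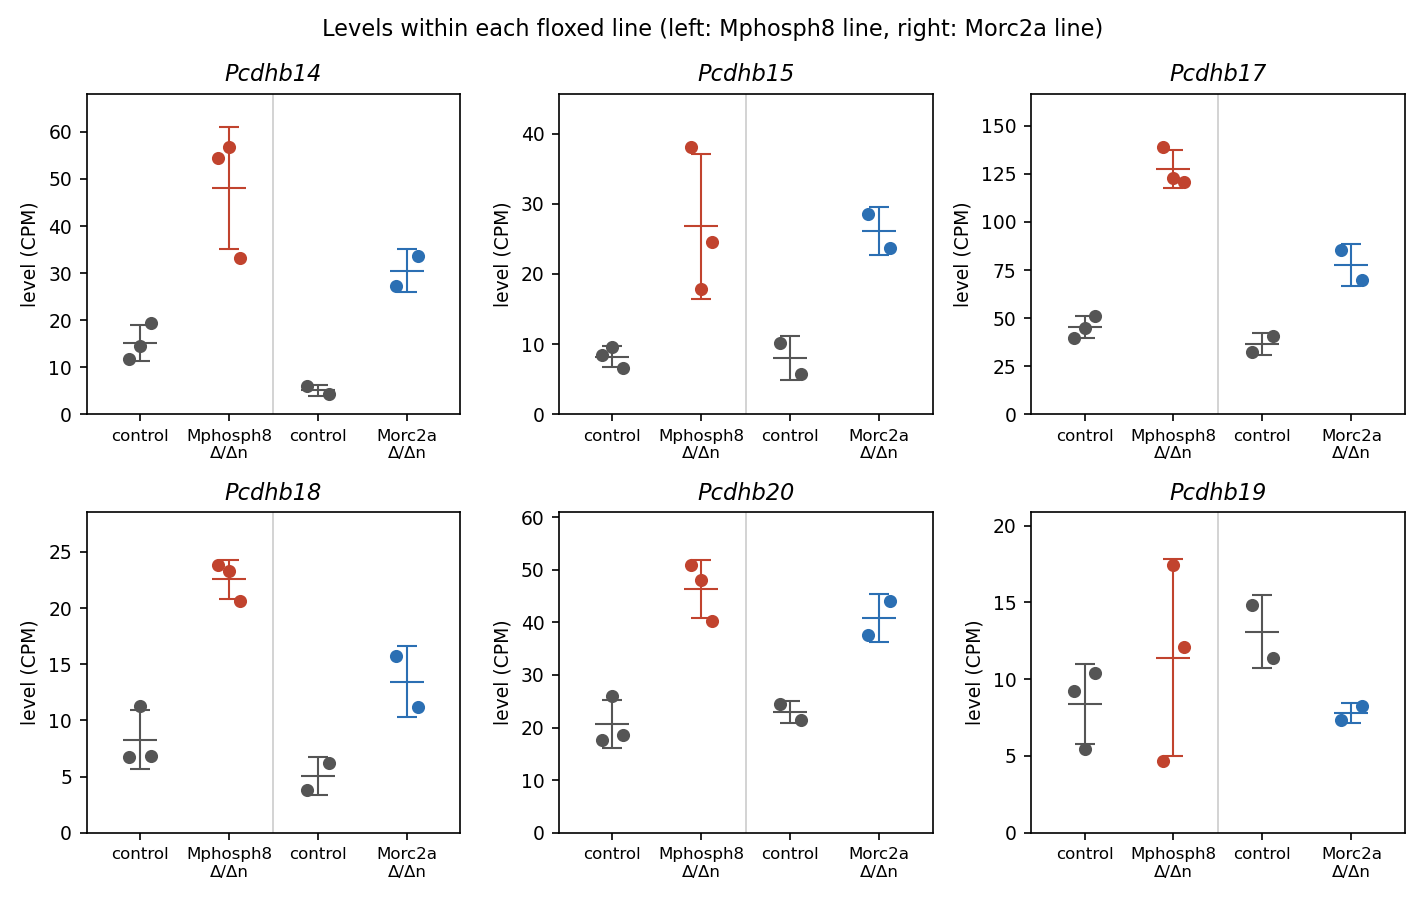
Level (CPM, linear axis from 0) of the 5 genes that rose in Mphosph8Δ/Δn and of Pcdhb19, within each floxed line. Points are libraries, and lines with bars are the mean and SD (n = 3, 3, 2 and 2 from left to right). Pcdhb14 starts from 15.2 CPM in controls of the Mphosph8 line and from 5.11 CPM in those of the Morc2a line.

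The change in the call of Pcdhb14 in Morc2aΔ/Δn went with its level in the controls. It was 15.2 ± 3.9 CPM in the 3 controls of the Mphosph8 line and 5.11 ± 1.15 CPM in the 2 of the Morc2a line, a log2 difference of -1.56 ± 0.338 that missed the threshold (edgeR adjusted p = 0.0764). It passed with DESeq2 (adjusted p = 0.00336) and without Mphosph8Δ/Δn replicate 3 (edgeR adjusted p = 0.0497), and over the 13 alternatives the adjusted p ran from 0.00119 to 0.446. None of the other 9 genes differed between the lines at an unadjusted p below 0.05, and 9.21% of all genes did (0.172% at an adjusted p below 0.05). Markers of recent neuronal activity summed to 804, 1043 and 1258 CPM in controls of the Mphosph8 line and to 602 and 424 CPM in those of the Morc2a line. With DESeq2, 3 of 82 cell type and activity markers tested differed between the lines (Egr1, Arc and Nr4a1), and 183 of all 18573 genes. Whether line, litter or sequencing run underlies the difference between controls was not tested.

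Summed over the 10 genes, the level was 142, 161, 157, 133 and 141 CPM in the controls, 421, 368 and 351 CPM in Mphosph8Δ/Δn, and 276 and 246 CPM in Morc2aΔ/Δn. The 3 groups did not overlap. The group means were 147 ± 11.8 CPM (SD, n = 5), 380 ± 36.4 (n = 3) and 261 ± 21 (n = 2), log2 ratios to control of 1.37 and 0.83. Pcdhb17 carried 36.8% of the difference in Mphosph8Δ/Δn and 31.5% in Morc2aΔ/Δn. Together with Pcdhb14 and Pcdhb20 it carried 63.2% and 65.4%.

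**Figure D4:**
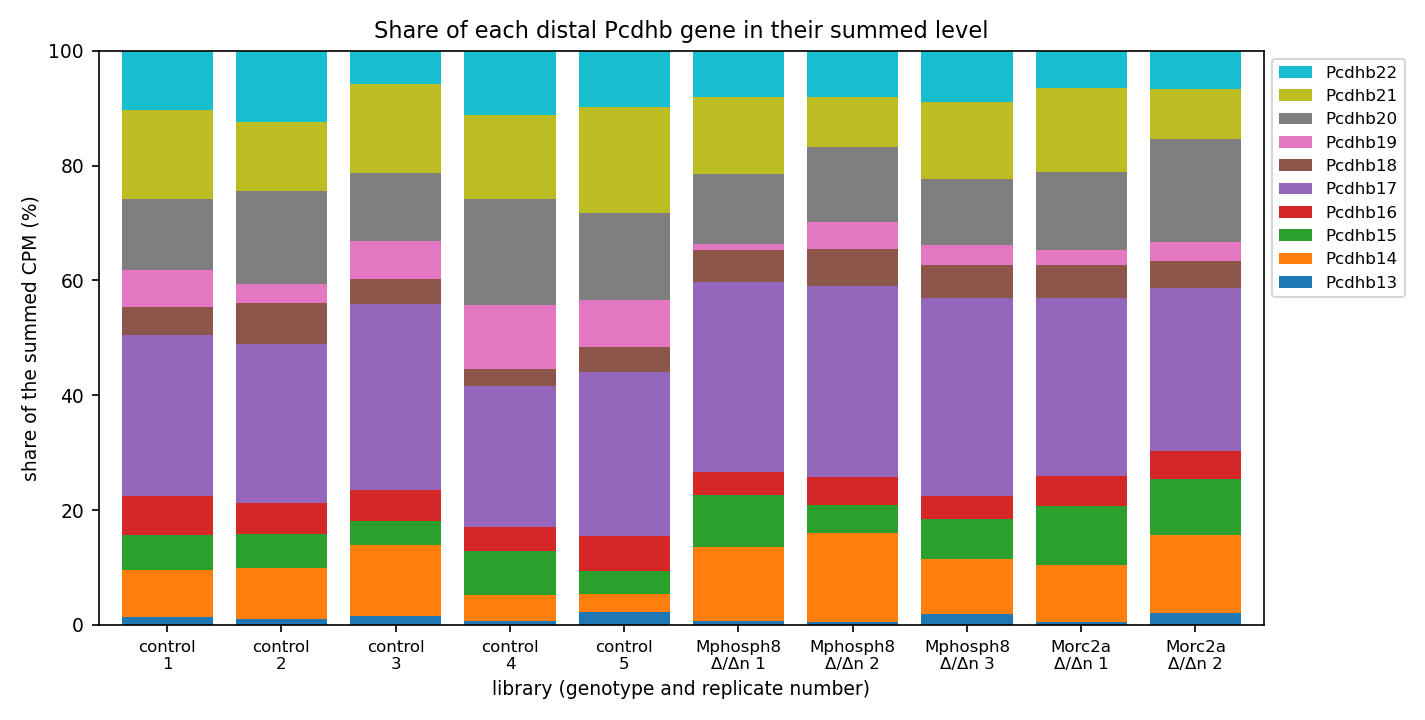
Share of each distal Pcdhb gene (stacked, % of the summed CPM of the 10 genes) in each library. Pcdhb17 takes the largest share in every library, between 24.5% and 34.5%, and the share of Pcdhb19 is smaller on average in the knockouts (3.09% and 3.01%) than in control (7.15%).

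The make-up of the sum also differed between groups for some genes. Pcdhb17 held 28.3 ± 2.85% of it in control, 33.6 ± 0.834% in Mphosph8Δ/Δn and 29.7 ± 1.77% in Morc2aΔ/Δn. The mean share of Pcdhb15 was 5.58% in control (4.09% to 7.66%), 6.95% in Mphosph8Δ/Δn (4.82% to 9.06%) and 9.99% in Morc2aΔ/Δn (9.64% to 10.3%, above all controls). That of Pcdhb19 was 7.15% in control (3.39% to 11.2%), 3.09% in Mphosph8Δ/Δn (1.1% to 4.72%) and 3.01% in Morc2aΔ/Δn (2.66% to 3.35%, below all controls). For Pcdhb14 the share depended on the control line, with 9.88% (8.3% to 12.4%) in controls of the Mphosph8 line and 3.75% (3.04% to 4.46%) in those of the Morc2a line. It was 12.6% in Mphosph8Δ/Δn (9.44% to 15.4%), which overlapped with the controls of its line, and 11.8% in Morc2aΔ/Δn (9.91% to 13.7%), which did not. The shares were not tested. The order of the genes by CPM per kilobase in control had a Spearman's rho of 0.842 with that in Mphosph8Δ/Δn and 0.794 with that in Morc2aΔ/Δn, over the same 10 genes with common transcript lengths. Pcdhb17 and Pcdhb20 were first and second in all 3 groups and Pcdhb13 last, while Pcdhb14 was the fifth in each knockout, the sixth in controls of the Mphosph8 line and the ninth in those of the Morc2a line.

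The spread between libraries was not the same from gene to gene, nor did one library set it. Among the Mphosph8Δ/Δn libraries, replicate 1 was the highest for 6 genes, replicate 2 for 3 and replicate 3 for 1, and among the Morc2aΔ/Δn libraries replicate 1 was the higher for 6 and replicate 2 for 4. Across the 10 libraries, the log2 CPM of Pcdhb17 had a correlation of 0.99 with the mean profile of the 10 genes, of which it is a part, and Pcdhb16, Pcdhb18 and Pcdhb20 had 0.94, 0.94 and 0.91. The value was 0.50 for Pcdhb13 and -0.09 for Pcdhb19. The libraries fall into 3 groups, which all these values share.

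The 12 proximal Pcdhb genes (Pcdhb1 to Pcdhb12) of the same array, upstream of Pcdhb13, were read beside them. In Mphosph8Δ/Δn, 4 of the 11 that were tested rose, Pcdhb6 (log2 3.04), Pcdhb7 (1.41), Pcdhb8 (2.92) and Pcdhb11 (1.67), and in Morc2aΔ/Δn Pcdhb6 rose (2.29). Their median log2 fold change was 1.14 in Mphosph8Δ/Δn and 0.58 in Morc2aΔ/Δn, beside 1.11 and 0.80 for the distal genes. Against controls of the same line, the medians were 0.84 and 0.89 for the proximal genes and 1.14 and 0.87 for the distal genes, so that the order of the medians turned in both knockouts. The distal genes held between 55.3% and 67.5% of all Pcdhb CPM in the control libraries, between 56.6% and 56.9% in Mphosph8Δ/Δn, and 61.2% and 58% in Morc2aΔ/Δn. A difference between the proximal and distal genes was not tested. The controls of the floxed lines differed at an unadjusted p below 0.05 (edgeR) for 6 of the 11 proximal genes and for 1 of the 10 distal genes, beside 9.21% of all genes.

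The genes between the beta and gamma arrays did not pass the test in either knockout. Taf7, a subunit of the general transcription factor TFIID, was at 11.7 ± 3.35 CPM in control, 9.96 ± 2.01 in Mphosph8Δ/Δn and 13.6 ± 3.77 in Morc2aΔ/Δn. Slc25a2, a mitochondrial carrier of ornithine, was at 7.41 CPM in control replicate 2 and between 0 and 0.79 CPM in the other controls, and no higher than 2.27 CPM in any knockout library.

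Genes that act on protocadherins were taken as lists. Of 16 genes for promoter choice (CTCF, cohesin, its loader and release factors, DNA methyltransferases and TET enzymes), all were tested and none passed in either knockout, with medians of -0.017 in Mphosph8Δ/Δn and 0.16 in Morc2aΔ/Δn. At an unadjusted p below 0.05 in either direction (edgeR) there were 0 and 1, and over all genes tested the shares were 5.67% in Mphosph8Δ/Δn and 10.7% in Morc2aΔ/Δn. Of 14 genes of HUSH, SETDB1 and their partners none passed, and 1 and 4 were below an unadjusted p of 0.05, the log2 fold changes in Morc2aΔ/Δn running from -0.82 (Cbx3) to 0.64 (Morc2a). Of 15 kinases and cytoskeletal proteins that act downstream of clustered protocadherins, none passed, with 1 and 1 at an unadjusted p below 0.05 and Rhoa lowest in both (-0.73 and -0.83). The 10 delta protocadherins, relatives encoded outside the cluster, had medians of 0.063 and -0.33 and none passed (0 and 3 at an unadjusted p below 0.05). With DESeq2 no gene of these 4 lists passed in either knockout.

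Marker genes of the cell types that the sorted nuclei could hold were read beside the distal Pcdhb sums. No gene of the 12 marker lists passed the test in either knockout with edgeR, and at an unadjusted p below 0.05 there were 8 in Mphosph8Δ/Δn and 20 in Morc2aΔ/Δn of the 82 tested, beside 5.67% and 10.7% of all genes. With DESeq2, Gabra6 and Cbln3 of cerebellar granule cells passed in Morc2aΔ/Δn and none in Mphosph8Δ/Δn. General neuronal markers summed to 4473 to 5147 CPM in control, 4551 to 4823 CPM in Mphosph8Δ/Δn, and 4175 and 3551 CPM in Morc2aΔ/Δn, which lay below the controls (5 of 8 genes at an unadjusted p below 0.05 in either direction, edgeR, most abundant Snap25). Their log2 fold changes in Morc2aΔ/Δn ran from -0.60 (Tubb3) to 0.33 (Map2), with a median of -0.34. Midbrain and hindbrain markers summed to 134 to 152 CPM in control, 182 to 195 CPM in Mphosph8Δ/Δn, and 110 and 99.4 CPM in Morc2aΔ/Δn, with 4 of the 7 genes tested at an unadjusted p below 0.05 in Mphosph8Δ/Δn. Slc17a6, at a mean of 105 CPM over the 10 libraries, made up most of this sum. The log2 fold changes had medians of 0.83 in Mphosph8Δ/Δn (-0.31 to 1.41) and 0.11 in Morc2aΔ/Δn (-3.11 to 0.58). Between 6 and 8 of the 8 genes of this list had reads in a library. Inhibitory neuron markers, led by Gad1, lay below the controls in Morc2aΔ/Δn (1158 and 1421 CPM against 1510 to 1907) and within them in Mphosph8Δ/Δn (1732 to 1809).

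Striatal markers, led by Penk, summed to 1427 to 1677 CPM in control, 1097 to 1378 CPM in Mphosph8Δ/Δn and 1091 to 1407 CPM in Morc2aΔ/Δn, below the controls in both knockouts (0 and 2 of 6 genes tested at an unadjusted p below 0.05, edgeR). The glial and granule cell sums overlapped with control in Mphosph8Δ/Δn. Those of oligodendrocytes were 749 to 977 CPM in control, 733 to 986 in Mphosph8Δ/Δn and 554 to 684 in Morc2aΔ/Δn, and those of astrocytes 901 to 1127, 793 to 946 and 805 to 934. Cerebellar granule cell markers, led by Cbln1, ranged from 80.5 to 509 CPM in control, with control replicate 4 highest, from 128 to 424 CPM in Mphosph8Δ/Δn, and from 79.7 to 80.4 CPM in Morc2aΔ/Δn. The part of these markers in the changes of the distal Pcdhb genes was not tested.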

How the data were processed

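The 10 libraries hold poly(A) RNA of sorted NeuN+ nuclei. Per the labels and the study's methods, the authors trimmed reads with Trim Galore 0.5.0, removed abundant sequences with Bowtie2 2.3.4.1, aligned to GRCm38 with STAR and counted reads in Ensembl genes with featureCounts (Subread 1.6.2). What was deposited is a table of whole-number counts per library, not normalized, for 54532 genes. The strand setting and the treatment of reads that fall in several genes are not given in the sources used here. GENCODE M21 gave positions for 54495 genes.

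Genes were kept by filterByExpr (18573, all 10 distal Pcdhb genes included) and scaled by TMM in edgeR 4.0.16 (R 4.3.3). One quasi-likelihood fit with 3 group means (common dispersion 0.141) compared each knockout with the 5 controls. A fit with 4 groups (line by Cre) gave same-line comparisons, their difference and the difference between control lines. In each comparison the p-values of all tested genes were adjusted together (Benjamini-Hochberg), and calls needed an adjusted p below 0.05 and, for a knockout against control, a fold change above 2. The scripts were tested on simulated data. Alternatives were median-of-ratios size factors, no filter, DESeq2 1.42.0, same-line controls, a replicate block, no minimum fold and leaving out each library. Dropping the minimum fold cannot lose a call. Leaving out a library of the other knockout bears on a comparison only through the filter, the scaling and the shared spread. Replicates differed by far more than sampling noise. The chi-square per degree of freedom was 38.4 for the 2 Morc2aΔ/Δn libraries and 9.55 to 20.3 for the other pairs within a group and line. The labels give each library a code of its own but do not say whether replicates came from separate animals. The study's methods call its replicates biological in general, without the animals behind each library, and the p-values measure the spread between these libraries. The genes, the lists and the tests were chosen with earlier results of these data known. Text names all 10 genes, the targeted genes, Rbfox3, the genes between the beta and gamma arrays, proximal Pcdhb genes that passed, the most abundant marker of a list, and the 5 genes most alike in profile. Of a list, the lowest or highest genes, and those called by DESeq2, were also named after their values were seen.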

Additional observations from a re-analysis of the deposited data

Results flagged for a closer look

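Slc25a2, which lies between the beta and gamma arrays, was at 7.41 CPM in control replicate 2, far above the other 4 controls (0 to 0.79 CPM). The gap was 0.893 of the range, above the critical value of 0.71 for 5 samples. It was 1 of 16 values looked at in this way, and chance alone marks about 1 in 20 where values are normally distributed. Slc25a2 had 0 to 76 reads in the controls, so that rate may not hold for it.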

How the results depend on the processing

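The number of distal Pcdhb genes called in Mphosph8Δ/Δn, 5, was 5 with median-of-ratios size factors and with no minimum fold, 7 without a filter and with DESeq2, 2 with controls of the same floxed line, and 1 to 5 when 1 library was left out. In Morc2aΔ/Δn, 1 became 2 without a filter and with DESeq2, and 0 to 1 when 1 library was left out. Over all 18573 genes, DESeq2 called 43 in Mphosph8Δ/Δn and 51 in Morc2aΔ/Δn, beside 18 and 11 with edgeR. With the replicate number as a block the numbers of distal genes were 1 (Pcdhb17) and 0. The block set the Morc2aΔ/Δn libraries beside control replicates 1 and 2, which are of the Mphosph8 line. Pcdhb14 in Morc2aΔ/Δn was then at a log2 fold change of 0.97, and at 2.56 against controls of its own line. Same-numbered libraries did not deviate together (correlations of deviations from the group means of -0.0275 to 0.0428 over 7 pairs, and -0.0552 to 0.0406 over 24 other pairs), and not every library correlated best with its own number. Control replicates 4 and 5 share their numbers with no knockout, so the check holds no pair within the Morc2a line and cannot speak to pairing there. For the same reason the block was not fitted for the control lines or the difference of effects. The count of genes that differed between control lines, 0, was 1 without a filter and with DESeq2 and 0 to 1 when 1 library was left out, and that for the difference of effects stayed 0. The log2 ratios of the summed level stayed between 1.27 and 1.43 in Mphosph8Δ/Δn and between 0.75 and 0.93 in Morc2aΔ/Δn.

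Of 160 log2 fold changes in Mphosph8Δ/Δn under alternatives, 27 lost a call, 4 gained one and 2 changed sign, and of 160 in Morc2aΔ/Δn 10, 3 and 2 did. Sign changes concerned genes that were not called, when 1 library was left out: Pcdhb19 in Mphosph8Δ/Δn (-0.29 to 0.52), and Pcdhb13 (-0.66 to 1.29) and Pcdhb21 (-0.038 to 0.86) in Morc2aΔ/Δn. For the difference of effects they were Pcdhb13 (-0.83 to 1.62), Pcdhb15 (-0.46 to 0.36), Pcdhb16 (-0.31 to 0.25) and Pcdhb18 (-0.35 to 0.34), and without a filter Pcdhb15 (-0.0056) and Pcdhb18 (-0.0094). For the control lines they were Pcdhb13 (-1.15 to 0.71), Pcdhb15 (-0.51 to 0.31), Pcdhb21 (-0.16 to 0.24) and Pcdhb22 (-0.27 to 0.29). The causes were not tested. With 2 Morc2aΔ/Δn libraries, and 2 controls in that line, a missed threshold there says little. Pcdhb13 had few reads and widely spread libraries, and their parts were not separated.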

Other observations

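The genes outside the protocadherin cluster whose log2 CPM over the 10 libraries had the highest correlation with the mean profile of the distal Pcdhb genes, among 18514 genes, were Pnmal1 (r = 0.954), Tchh (0.947), Gm12924 (0.943), 4921517D16Rik (0.921) and Fnip2 (0.921). The libraries fall into the 3 groups of the study, which all 5 values share. Tchh, which encodes trichohyalin of hair follicles, was at 9.22 ± 2.47 CPM in control (SD, n = 5), 27.1 ± 5.43 in Mphosph8Δ/Δn (n = 3) and 19 ± 2.78 in Morc2aΔ/Δn (n = 2), and it rose in Mphosph8Δ/Δn (log2 1.55, edgeR adjusted p = 0.0231). Pnmal1, of the PNMA family, which derives from retrotransposon Gag genes, was at 167 ± 11.6, 253 ± 13.2 and 194 ± 6.94 CPM, with a log2 fold change of 0.60 in Mphosph8Δ/Δn (edgeR adjusted p = 0.0349), under the minimum fold used for a call. Gm12924, a processed pseudogene, was at 7.92, 14 and 11.9 CPM and Fnip2, a folliculin partner, at 8.62, 13 and 11.4 CPM. The antisense gene 4921517D16Rik had no reads in any control and at most 24 in a knockout library.

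Sums of markers of recent neuronal activity, led by Arc, ran from 424 to 1258 CPM in control, 390 to 649 CPM in Mphosph8Δ/Δn and 538 to 633 CPM in Morc2aΔ/Δn. Forebrain excitatory markers, led by Camk2a, summed to 696 to 860, 725 to 758 and 462 to 816 CPM. Markers of oligodendrocyte precursors (Olig1) summed to 67.1 to 77.8, 73.3 to 91.7 and 47.6 to 65.1 CPM, and those of endothelial cells (Ly6c1) to 3.13 to 9.94, 4.86 to 12.3 and 2.34 to 5.88 CPM.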
